A study of Mus musculus with 117 samples.

Results

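The comparison described here set the RNA bound to astrocyte ribosomes against the rest of the tissue RNA in mouse spinal cord 2 days after a crush injury. Its members were chosen by their titles: 5 astrocyte libraries (RiboTag 1 to 5) and 5 flow-through libraries (Flow 1 to 5) of the group Aldh1l1 2d SCI, paired by number, 10 of the 117 libraries of the series. All 10 carry the genotype Aldh1l1-CreERT2-RiboTag, in which a Cre recombinase under the astrocyte promoter Aldh1l1, active after tamoxifen, switches on a haemagglutinin (HA) tag on the ribosomal protein Rpl22. The mice were young adults on a C57BL/6 background, labelled female, and had a complete crush spinal cord injury (SCI) at a thoracic level. RNA was taken from a short block of cord around the lesion centre. An anti-HA antibody pulled tagged ribosomes out of the homogenate, which gave the astrocyte library. By the study's description, the flow-through library was made from what the same immunoprecipitation left in solution. It therefore holds the RNA of the other cells and also any astrocyte RNA that was not bound. Where enrichment at 2 d is set against other times, the same 2 kinds of library were used from uninjured mice of the same genotype and label (4 pairs) and from mice 5 d after the same injury (4 pairs, where 1 flow-through library carries a male label and its title does not).

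Astrocytes take up glutamate and potassium, line blood vessels with endfeet rich in the water channel aquaporin 4, and make much of the cholesterol and apolipoprotein E of the nervous system. After injury they become reactive, raising intermediate filaments such as GFAP, vimentin and nestin, while microglia, blood-derived leukocytes, oligodendrocyte progenitor cells (OPCs) and stromal cells gather at the lesion. By design the comparison is made within 1 tissue. A gene can then gain or lose enrichment through its level in astrocytes or through its level in everything else. A ratio can also differ where the libraries of a pair are not from the same tissue. The sex-linked counts given next do not match between the libraries of some pairs, and the part of this in the results was not tested. In bulk samples such as these, fewer cells of a type and less RNA per cell cannot be told apart.

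Before any result, the libraries themselves need description, because the genes that tell male from female tissue go against the labels at 2 d. Xist, the X-linked RNA made in female cells (gene 213742; chromosome X, 103460373 to 103483233 of GRCm38), had 6, 379, 572, 5 and 0 counts in astrocyte libraries 1 to 5 and 1, 0, 30, 0 and 0 counts in flow-through libraries 1 to 5. Ddx3y, a Y-linked RNA helicase (gene 26900; chromosome Y, 1260715 to 1286628), had 5825, 0, 0, 3701 and 4821 counts in the astrocyte libraries and 1975, 5083, 3310, 5190 and 3128 in the flow-through libraries. In all, 8 of the 10 libraries had over 1000 counts of Ddx3y under a female label. In pairs 2 and 3 the astrocyte library had Xist and no Ddx3y, and the flow-through library had the reverse, so that the 2 libraries of these pairs do not match each other. In the flow-through libraries of uninjured and 5 d cord, Xist had 3174 to 5283 counts and Ddx3y at most 2. For pairs 2 and 3 these counts go against 2 libraries of 1 mouse, and for the other pairs at 2 d the sex-linked genes do not tell. Over all genes, deviations of same-numbered libraries from their group means correlated at -0.03 to 0.06 at 2 d. Libraries of different number correlated at -0.07 to 0.06. The number was kept as a block in the tests below. Their standard errors and p-values therefore assume a pairing that the sex-linked counts go against for pairs 2 and 3. The correlations do not bear it out for the 2 d pairs in general. The pattern of the sex-linked genes and the time after injury cannot be told apart in comparisons with the other groups. Counts below are given also without pairs 2 and 3 where that changes them by more than 1.5 times.

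**Figure D1:**
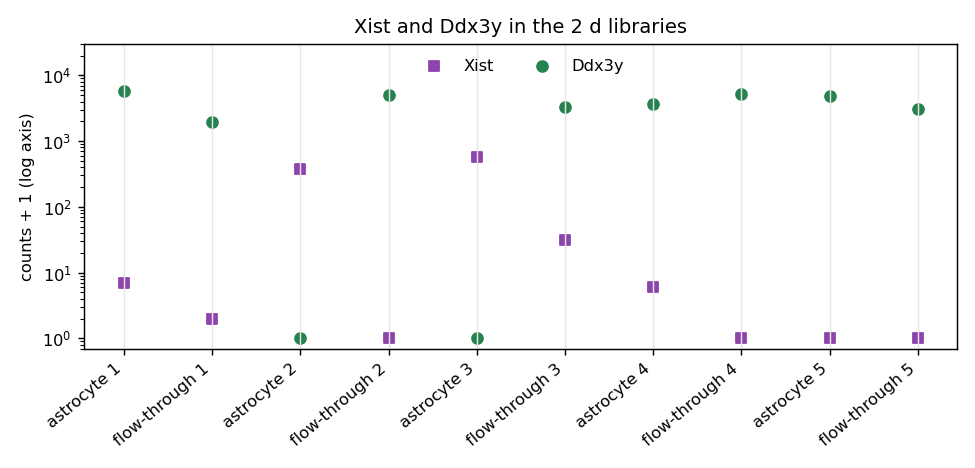
Counts of Xist (squares) and Ddx3y (circles), plus 1, on a log axis in each of the 10 libraries at 2 d, ordered by pair number. In pairs 2 and 3 the astrocyte library has Xist (379 and 572 counts) and no Ddx3y, while the flow-through library has 5083 and 3310 counts of Ddx3y.

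A second set of libraries stood apart by quality. The astrocyte libraries held 72619805 to 90452378 counts on genes and 17798 to 18595 genes with a count. Flow-through libraries 1, 3 and 5 held 69137017 to 75175387 counts and 17532 to 17934 genes, whereas flow-through libraries 2 and 4 held 40710428 and 58952608 counts and 15763 and 16404 genes. The log CPM (CPM, the read count scaled to library size) of libraries 2 and 4 correlated at 0.909 to 0.929 with the other flow-through libraries, against 0.950 to 0.957 among the other 3. Of 9934 genes at 5 CPM or more in all uninjured and 5 d flow-through libraries, at least 125 were under 1 CPM in each of flow-through libraries 2 and 4, against 16 to 27 in the other 3.

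Enrichment at 2 d was widespread in both directions. Of 16476 genes tested, 3195 (19.4%) were at least 2-fold higher in the astrocyte libraries and 3086 (18.7%) at least 2-fold lower, at a false discovery rate (FDR) under 0.01 in edgeR's quasi-likelihood test with the pair number as a block. The median log2 ratio over all genes tested was 0.08. Without pairs 2 and 3 the counts were 2109 and 2042. Without the block they were 3254 and 3522, and without pairs 2 and 4, 3109 and 2853. Genes named below are the first of each gene list or the extremes of the ranking, and members further down a list were chosen after their values were seen.

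Astrocyte markers were strongly enriched, as the label of the astrocyte libraries says. Of 20 genes, 18 were higher in them (background 19.4%), 0 were lower, and the median log2 ratio was 3.67, against 0.08 for all genes. Aldh1l1, the folate enzyme whose promoter drives the Cre (gene 107747; chromosome 6, 90550768 to 90599171), stood at 435, 429.2, 382, 418 and 401 CPM in astrocyte libraries 1 to 5 and at 23.3, 34, 31.6, 47.7 and 23.2 CPM in the flow-through libraries. Every astrocyte library was far above every flow-through library, with a log2 ratio of 3.74 (standard error, SE, 0.19, adjusted p = 4.4e-06 in edgeR's quasi-likelihood test, adjusted by Benjamini-Hochberg). Aqp4, the endfoot water channel, had 868, 1415, 1253, 955 and 941 CPM against 36.5, 13.3, 43.2, 18 and 39.5 CPM (log2 ratio 5.27). Its flow-through values were lowest in libraries 2 and 4, and without those pairs the log2 ratio was 4.68. Slc1a3, the glutamate transporter GLAST, had 154, 237, 201, 165 and 186 CPM against 17.8, 13.7, 23.7, 19.3 and 21.8 CPM, a log2 ratio of 3.29. The list held 2 genes that were not called. S100b, a calcium-binding protein also made by oligodendrocytes, had overlapping groups at 1067, 1312, 1109, 1394 and 1278 CPM in astrocyte and 747, 1947, 1373, 2252 and 893 CPM in flow-through libraries (log2 ratio -0.11). Padi2, a protein deiminase, likewise overlapped (0.13).

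Enrichment of the marker list was lower than in uninjured cord. Averaged over its 20 genes, the log2 ratio was 3.62, 4.51, 3.21, 3.09 and 3.64 in pairs 1 to 5 (3.62 ± 0.55, SD, n = 5), against 4.78 ± 0.07 (SD, n = 4) in uninjured cord and 3.32 ± 0.09 (SD, n = 4) at 5 d. Pair 2 was the highest of the 5 and every 2 d pair lay under the uninjured mean. In the fit of the 3 groups together, 12 of the 20 had a lower log2 ratio at 2 d than in uninjured cord (17.5% of all genes) and 0 had a higher one (28.3% of all genes). Both fractions were lower in level, since the mean log2 CPM of the list was 1.86 lower in the astrocyte libraries than in uninjured cord and 0.70 lower in the flow-through libraries. The largest falls were those of Padi2 (-3.53), Sox9, Gjb6 (-2.76) and Mlc1 (-1.73). Sox9, a transcription factor of the astrocyte lineage, had 309.8, 368, 258, 302 and 285 CPM in astrocyte libraries at 2 d and 46.3, 206, 94.3, 161 and 65.6 CPM in flow-through libraries. Its log2 ratio was 1.61 at 2 d and 4.74 in uninjured cord, a difference of -3.09 (adjusted p = 1.6e-06, edgeR's quasi-likelihood test). On the scale of all 26 libraries its astrocyte level was 303.3 ± 39.2 CPM at 2 d and 317 ± 51.1 CPM in uninjured cord, whereas its flow-through level was 110.0 ± 63.2 CPM against 11.8 ± 1.19 CPM (SD, n = 5 and 4). The flow-through mean of Sox9 was thus far higher at 2 d, while its astrocyte means were close. Its highest flow-through values at 2 d were those of libraries 2 and 4, which stood apart by quality.

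**Figure D2:**
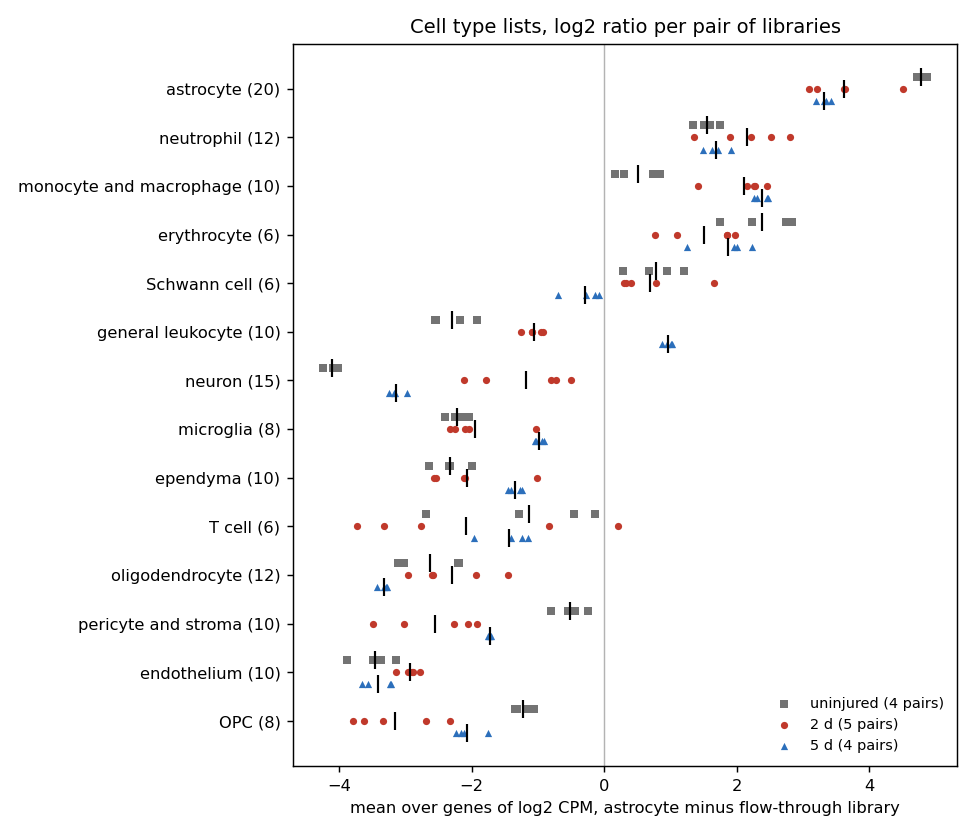
Log2 ratio of astrocyte to flow-through library, averaged over the genes of each cell type list (number of genes in parentheses), for every pair of uninjured (squares), 2 d (circles) and 5 d (triangles) cord, with the group mean as a black bar. The astrocyte list is at 3.09 to 4.51 at 2 d, the neuron list has moved from -4.11 in uninjured cord to -1.18, and the OPC and stroma lists are lower at 2 d than in uninjured cord.

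Neuron markers lost most of their depletion. In uninjured cord all 15 of 15 genes were lower in the astrocyte libraries (21.4% of all genes). At 2 d 7 of 15 were lower (background 18.7%) and 0 higher, with a median log2 ratio of -1.45, and the count of lower genes was 2 without pairs 2 and 3. Snap25, a synaptic vesicle fusion protein (gene 20614; chromosome 2, 136713439 to 136782428), had 43.4, 74.6, 44.4, 50.7 and 64.8 CPM in the astrocyte libraries and 71.6, 67.5, 178, 243 and 77.5 CPM in the flow-through libraries. The groups overlapped, with flow-through libraries 3 and 4 high and the other 3 near the highest astrocyte libraries. Its log2 ratio of -1.01 did not pass the test (adjusted p = 0.043, edgeR's quasi-likelihood test), and differed from the uninjured ratio of -4.22 by 3.25 (adjusted p = 8e-06). Nefl, a neurofilament of axons, had 39.5, 61.2, 39.5, 40.7 and 55 CPM against 40.8, 21.3, 59.6, 48.3 and 18.4 CPM, again with overlap. Its level in the flow-through libraries was 36.3 ± 16.9 CPM at 2 d and 1940.4 ± 184 CPM in uninjured cord, and in the astrocyte libraries 47 ± 9.99 and 144 ± 14.7 CPM (SD, n = 5 and 4). Over the list, mean log2 CPM was 3.64 lower in the flow-through libraries than in uninjured cord and 0.72 lower in the astrocyte libraries. Syt1, a calcium sensor of synaptic vesicles, was lower in the astrocyte libraries at both times (log2 ratio -2.76 at 2 d and -3.90 in uninjured cord). Stmn2, a growth-associated tubulin-binding protein, was at 269.1 ± 49.1 CPM in the astrocyte libraries at 2 d against 27.3 ± 2.15 in uninjured cord (SD, n = 5 and 4). Its log2 ratio was -4.51 in uninjured cord and 0.77, not called, at 2 d, where it was called higher without pairs 2 and 4 (1.03). Over the list, 14 of 15 genes had a higher log2 ratio at 2 d than in uninjured cord (background 28.3%) and 12 of 15 a higher one than at 5 d (18.1%).

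Oligodendrocyte and OPC genes were among the most depleted. Of 12 oligodendrocyte genes 10 were lower (18.7% of all genes) and 0 higher (19.4%), with a median log2 ratio of -2.73. Mbp, a major myelin protein, had 583, 1721, 1181, 1123 and 1368 CPM in the astrocyte libraries and 5810.1, 7318, 10015, 10514 and 5552 CPM in the flow-through libraries (log2 ratio -2.75). Its uninjured ratio was -2.56, and the difference was not called. Mog, also a myelin protein, was lower as well (-3.73). Of 8 OPC genes 6 were lower (18.7% of all genes) and 0 higher, with a median of -4.18. In 5 of them the log2 ratio was lower than in uninjured cord (background 17.5%). Cspg4, which codes for the NG2 proteoglycan of OPCs and pericytes (gene 121021; chromosome 9, 56865104 to 56899870), had 6.36, 6.89, 4.33, 7.20 and 8.26 CPM in the astrocyte libraries and 141, 257, 145, 228 and 149 CPM in the flow-through libraries. The groups were far apart in every pair. The log2 ratio was -4.78 (SE 0.20, adjusted p = 3.9e-06, edgeR's quasi-likelihood test). In uninjured cord it was -1.16. Cspg4 stood at 177 ± 50.4 CPM in the flow-through libraries at 2 d and at 17.7 ± 0.366 CPM in uninjured cord, with 6.58 ± 1.44 and 7.99 ± 1.31 CPM in the astrocyte libraries (SD, n = 5 and 4). Pdgfra, the growth factor receptor of OPCs, did not follow it, since its log2 ratio was -1.36 at 2 d and -1.32 in uninjured cord.

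Vascular and stromal genes were also on the flow-through side. Of 10 endothelial genes 8 were lower (18.7% of all genes) and 1 was higher (19.4%). The higher gene was Cdh5, a junction protein, whose call was lost without the block, without pairs 2 and 4 and without pairs 2 and 3. Cldn5, the tight junction protein of brain endothelium, had 2.62, 3.53, 3.54, 3.88 and 4.45 CPM against 193.1, 304.2, 204, 285 and 206 CPM, a log2 ratio of -6.04. Pecam1, an adhesion molecule of endothelium, was lower too (-3.09), while Flt1, a VEGF receptor, was not called and its groups overlapped. Of 10 pericyte and stroma genes 8 were lower (18.7% of all genes) and 0 higher, and 5 were lower without pairs 2 and 3. Col1a1, a main chain of fibrillar collagen, had 96.6, 120.4, 163, 111 and 124 CPM in the astrocyte libraries and 4762, 1459.9, 2856, 670.4 and 3756 CPM in the flow-through libraries. Flow-through library 4 was the lowest, and still above every astrocyte library (log2 ratio -4.18, SE 0.45, and -4.88 without pairs 2 and 4). Pdgfrb, the growth factor receptor of pericytes, had 27.4, 26.1, 29.8, 24.3 and 27.6 CPM against 258, 238, 209, 225 and 199.5 CPM. Its log2 ratio was -3.06 at 2 d and 0.77 in uninjured cord, and 6 of the 10 genes of the list had a lower ratio than in uninjured cord (background 17.5%).

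Leukocyte genes split by cell type. Of 8 microglia genes 5 were lower in the astrocyte libraries (18.7% of all genes), and 3 were lower without pairs 2 and 3. The 1 higher gene was Sall1, a transcription factor. Cx3cr1, the fractalkine receptor of microglia, had 11.9, 10.2, 12.1, 12.2 and 12.2 CPM in the astrocyte libraries and 222, 645, 408, 587 and 283 CPM in the flow-through libraries, with no overlap and a log2 ratio of -5.08. Tmem119, a membrane protein of microglia, followed it (-3.47). P2ry12, a purinergic receptor of resting microglia, was at most 10.4 CPM in any library. Its groups overlapped, and its call as lower (log2 ratio -1.05) was lost without the block, without pairs 2 and 3 and on leaving out each of 4 single pairs. Of 10 monocyte and macrophage genes, by contrast, 6 were higher in the astrocyte libraries (background 19.4%), 1 was lower, and the median log2 ratio was 2.29. Arg1, the arginase of wound macrophages (gene 11846; chromosome 10, 24915207 to 24927470), had 2061, 824, 1291, 1058 and 1298 CPM in the astrocyte libraries and 135, 31.1, 75.6, 74.6 and 111 CPM in the flow-through libraries. All 5 astrocyte libraries were above all 5 flow-through libraries, by a log2 ratio of 4.02 (SE 0.20, adjusted p = 4.2e-06, edgeR's quasi-likelihood test). In uninjured cord its mean was under 1 CPM in both fractions. Ccr2, the chemokine receptor of inflammatory monocytes, had 73.4, 50.5, 76.6, 69.3 and 66.2 CPM against 22.2, 10.9, 12.8, 24.6 and 22.5 CPM (1.91). Ly6c2, another monocyte gene, did not pass the test (1.17). Ms4a7, a macrophage membrane protein, was the 1 lower gene (-2.62).

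Neutrophil genes lay on the same side as those of monocytes, with 7 of 12 higher (19.4% of all genes) and 0 lower (18.7%). S100a8, a calprotectin subunit and one of the most abundant neutrophil proteins, had 379, 127, 147, 163 and 219 CPM against 37.4, 31.8, 9.47, 17 and 13.3 CPM, a log2 ratio of 3.33. Its partner S100a9 was higher as well (2.33), while Csf3r, the receptor for granulocyte colony-stimulating factor, overlapped between the groups (0.70) and was called higher without pairs 2 and 4 (1.01). In uninjured cord 8 of the 12 were higher (13.8% of all genes) and 2 lower, and S100a8 had a log2 ratio of 2.90. Of 6 erythrocyte genes measured, 3 were higher at 2 d (19.4% of all genes) and 0 lower. They were the globins Hba-a1 and Hbb-bs, and Alas2, an enzyme of heme synthesis. Hba-a2, a near-identical copy of Hba-a1, was not called, and reads of these copies may not be told apart. In uninjured cord all 6 erythrocyte genes were higher (13.8% of all genes). Markers shared by all leukocytes took a middle place, with 1 of 10 higher, under the 19.4% of all genes, and 5 lower (18.7%). Ptprc, the CD45 phosphatase of all leukocytes, had 62.5, 28, 37.2, 36.7 and 40.2 CPM against 30.2, 19.3, 13.2, 24.8 and 34.3 CPM with overlap, and did not reach 2-fold (0.77). Itgam, an integrin of myeloid cells, overlapped (0.18), and so did Cd68 (-0.73), a lysosomal protein of phagocytes. Averaged over the list the log2 ratio was -1.06 ± 0.13 (SD, n = 5) at 2 d, -2.30 ± 0.30 (SD, n = 4) in uninjured cord and 0.96 ± 0.07 (SD, n = 4) at 5 d. The mean log2 CPM of the list was 5.13 higher in the astrocyte libraries at 2 d than in uninjured cord and 3.90 higher in the flow-through libraries, and for the monocyte and macrophage list it was 5.75 and 4.15 higher. Leukocyte genes were thus present in the astrocyte libraries at 2 d, and their part in the other results was not tested. Of the small lists, to be read against the 18.7% of all genes that were lower and the 19.4% that were higher, 1 of 4 T cell genes tested was lower (2 without pairs 2 and 4) and 0 higher, 3 of 7 ependymal genes tested were lower (1 without pairs 2 and 3, 5 without pairs 2 and 4) and 1 higher, and 3 of 6 Schwann cell genes were lower (2 without pairs 2 and 4 or without pairs 2 and 3) and 2 higher.

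**Figure D3:**
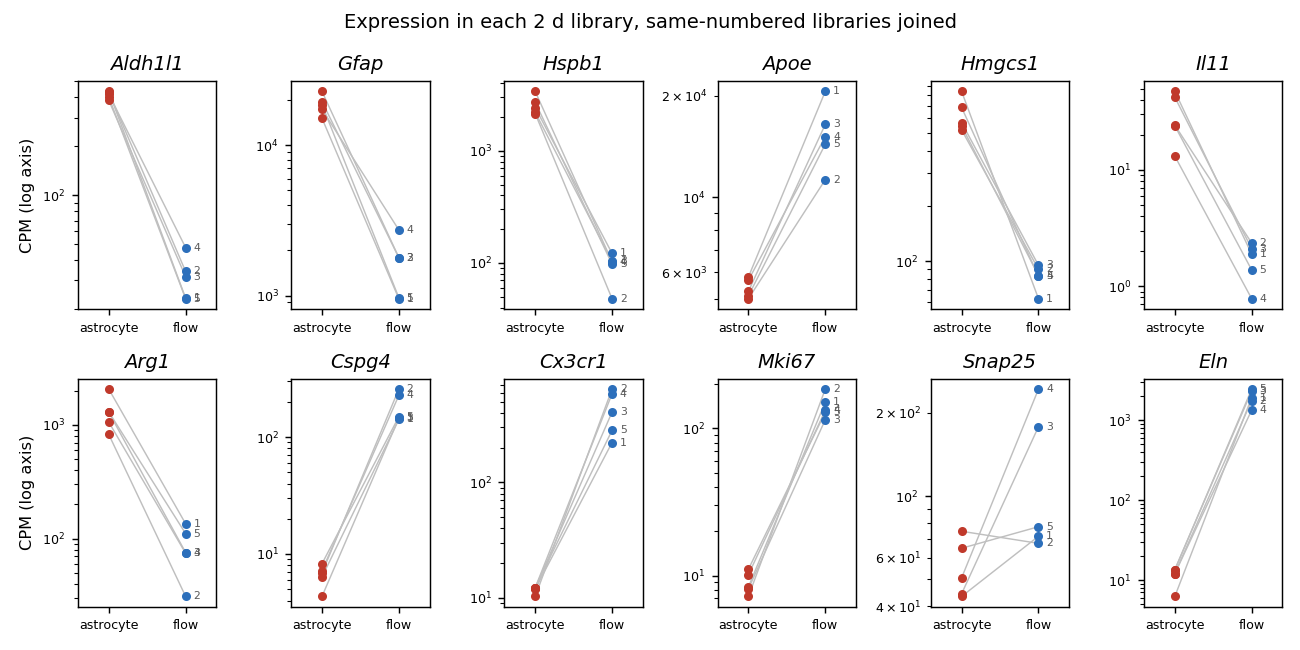
Expression in CPM, on log axes that differ between panels, of 12 genes in each astrocyte (left) and flow-through (right) library at 2 d, with a grey line joining libraries of the same number, which is printed beside the flow-through value. Aldh1l1, Gfap, Hspb1, Hmgcs1, Il11 and Arg1 are higher in all 5 astrocyte libraries, Apoe, Cspg4, Cx3cr1, Mki67 and Eln are lower in all 5, and Snap25 overlaps.

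Genes for the support functions of astrocytes were enriched. Of 12 genes of transmitter uptake and metabolism 10 were higher (19.4% of all genes) and 0 lower (18.7%), with a median log2 ratio of 2.54. Glul, glutamine synthetase, had 1924, 1951, 1958, 2041 and 1962 CPM in the astrocyte libraries and 461, 216, 475, 278 and 421 CPM in the flow-through libraries. The astrocyte values lay within a narrow range, and flow-through libraries 2 and 4 were the lowest (log2 ratio 2.47, and 2.12 without those pairs). Of 13 genes of endfeet and of water and potassium handling, 12 were higher (19.4% of all genes) and 0 lower. Kcnj10, the Kir4.1 potassium channel, had 664, 1482, 935, 854 and 1009.5 CPM against 180.2, 122, 245, 163 and 159.8 CPM (2.49). In these groups 8 of 12 and 8 of 13 genes had a lower ratio at 2 d than in uninjured cord (background 17.5%) and 1 each had a higher one.

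Transcription factors of astrocytes were mostly enriched. Of 12 tested, 8 were higher (19.4% of all genes) and 2 lower, a share near the 18.7% of all genes. Without pairs 2 and 3, 8 were higher and 0 lower. Rorb, a nuclear receptor, was among the higher (5.44). Nfia, which starts astrocyte development, had 122, 139, 115, 148 and 143 CPM in the astrocyte libraries and 211, 354, 303.8, 289 and 216 CPM in the flow-through libraries. Every astrocyte library was below every flow-through library, and the log2 ratio of -1.02 (SE 0.15, adjusted p = 0.00052, edgeR's quasi-likelihood test) lay just past 2-fold, a call that was lost without pairs 2 and 4, without pairs 2 and 3 and on leaving out either of 2 single pairs. In uninjured cord its log2 ratio was 1.98. Id3, an inhibitor of DNA binding by other factors, had 84.1, 84.4, 98.5, 119 and 131 CPM against 340.0, 208, 281, 186 and 318 CPM, a log2 ratio of -1.35 that was not called without pairs 2 and 3, whereas it was 2.54 in uninjured cord. Both were thus on the astrocyte side in uninjured cord and on the flow-through side at 2 d.

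Lipid genes were split between the fractions. Of 18 genes of cholesterol and lipoproteins, 16 were higher in the astrocyte libraries (19.4% of all genes) and 2 lower (18.7%). In a split by role, made apart from the gene lists, all 13 of 13 cholesterol synthesis genes were higher, with a median log2 ratio of 2.90. Hmgcs1, which makes the first committed precursor of the pathway (gene 208715; chromosome 13, 119690351 to 119708260), had 839.7, 518, 568, 686.3 and 543 CPM in the astrocyte libraries and 62.4, 90.2, 94.8, 82.6 and 83.4 CPM in the flow-through libraries. The 2 groups were far apart in every pair (log2 ratio 2.92, SE 0.20, adjusted p = 1.6e-05, edgeR's quasi-likelihood test). Fdps, which makes farnesyl diphosphate, had 216, 138, 147, 155 and 134 CPM against 19.96, 13.8, 21.6, 14.8 and 14.6 CPM, a log2 ratio of 3.22 at 2 d and 0.04 in uninjured cord. Averaged over the 13 genes the log2 ratio was 3.12 ± 0.35 (SD, n = 5) at 2 d, 1.27 ± 0.10 (SD, n = 4) in uninjured cord and 0.15 ± 0.08 (SD, n = 4) at 5 d. Of the 13, 11 had a higher ratio than in uninjured cord (background 28.3%) and 13 a higher ratio than at 5 d (18.1%). The level of the list was 2.03 lower in the flow-through libraries than in uninjured cord on the log2 scale and 0.18 lower in the astrocyte libraries.

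Apoe, the main lipid carrier of the nervous system, and Abca1, which loads it with cholesterol, were on the other side. Apoe (gene 11816; chromosome 7, 19696244 to 19701310) had 5809, 5009, 5268, 5683 and 5107 CPM in the astrocyte libraries and 20602, 11279.8, 16453, 15140.2 and 14374 CPM in the flow-through libraries. All astrocyte libraries were below all flow-through libraries, with a log2 ratio of -1.51 (SE 0.17, adjusted p = 0.00013, edgeR's quasi-likelihood test). In uninjured cord it was 4.00, and the difference between the times was -5.46 (SE 0.17, adjusted p = 3.1e-11). Apoe was at 5356 ± 375 CPM in the astrocyte libraries at 2 d and at 19327 ± 1985 CPM in uninjured cord, and at 15049.8 ± 3387 and 1206 ± 30.04 CPM in the flow-through libraries (SD, n = 5 and 4). Its mean was thus lower at 2 d in one fraction and higher in the other. Abca1 had 89.1, 59.6, 65.8, 63.4 and 77.8 CPM against 236, 264, 174, 283 and 285 CPM, a log2 ratio of -1.80 against 3.45 in uninjured cord. Clu, a second apolipoprotein of astrocytes, stayed strongly enriched (4.52).

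Reactive astrocyte genes were mostly enriched. Of 24, 16 were higher (19.4% of all genes) and 1 was lower (18.7%), with a median log2 ratio of 2.08. Against uninjured cord 8 had a higher ratio (background 28.3%) while 5 had a lower one (17.5%). Gfap, the filament protein that marks reactive astrocytes, had 15106, 22790.2, 19522, 17323 and 18618 CPM in the astrocyte libraries and 953, 1787, 1788, 2732 and 967 CPM in the flow-through libraries (3.61). Its flow-through level was highest in library 4. Vim, vimentin, had 3085, 3361, 3818, 3612 and 3775 CPM against 956, 203, 554, 204 and 633 CPM, with flow-through libraries 2 and 4 the lowest (3.05, and 2.37 without those pairs). Lcn2, a secreted iron-binding protein of acute reactivity, had 97.3, 157, 120.1, 188 and 265 CPM against 12, 24.1, 18.2, 30.8 and 6.58 CPM, and pair 5 gave the highest ratio (3.22). Some members were not called in uninjured cord and were strongly enriched at 2 d. Nes, nestin (gene 18008; chromosome 3, 87971093 to 87980451), had 1232, 804, 826, 894 and 891 CPM against 54.5, 67, 60.7, 55.6 and 62.2 CPM, a log2 ratio of 3.94 (SE 0.17, adjusted p = 3.9e-06, edgeR's quasi-likelihood test) where that in uninjured cord was -0.07. Hspb1, a small heat shock protein (gene 15507; chromosome 5, 135887919 to 135889563), had 2430.5, 2151, 2205, 3388 and 2709 CPM against 122, 48, 103, 103 and 97.8 CPM, a log2 ratio of 4.81 against 0.26. Tgm1, a transglutaminase, was at 748 ± 101 CPM in the astrocyte libraries and 14.8 ± 3.74 CPM in the flow-through libraries at 2 d, and under 1 CPM in both in uninjured cord. Spp1, osteopontin, was the 1 lower gene, with 5626, 3557, 5008, 3318 and 3395 CPM against 19574, 11346, 13224, 15078 and 16209.7 CPM (-1.86). Another 4 members were higher in uninjured cord and not called at 2 d: the complement factor C3, the protease inhibitor A2m, the lectin Lgals3 and the calcium-binding protein S100a6. C3 was called higher at 2 d without pairs 2 and 4 (1.16).

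**Figure D4:**
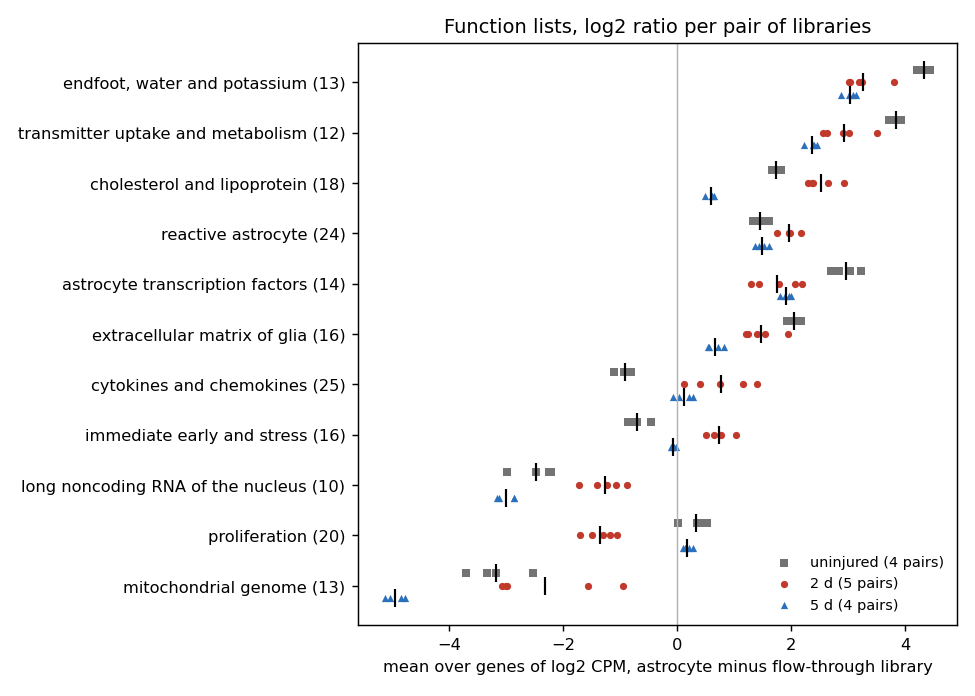
Log2 ratio of astrocyte to flow-through library, averaged over the genes of each function list (number of genes in parentheses), for every pair of uninjured (squares), 2 d (circles) and 5 d (triangles) cord, with the group mean as a black bar. The cholesterol list is highest at 2 d, all 5 pairs of the proliferation list are below 0 at 2 d, and pairs 2 and 4 stand apart in the mitochondrial list.

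Cytokine and chemokine genes were found on both sides. Of 24 cytokine and chemokine genes tested, 7 were higher in the astrocyte libraries and 7 lower, where 19.4% and 18.7% of all genes were. Of 25 tested against uninjured cord 8 had a higher ratio, a share near the 28.3% of all genes, and 1 had a lower one (17.5% of all genes). Ccl2, which draws monocytes, had 105, 67.1, 98.5, 67.7 and 69.6 CPM against 28.7, 17.5, 18.7, 24.2 and 28.6 CPM (1.79) and was lower in the astrocyte libraries of uninjured cord (-1.53), where its mean was under 1 CPM in both. Il11, a cytokine of the interleukin 6 family (gene 16156; chromosome 7, 4772373 to 4782907), had 47.2, 24.2, 42.1, 13.1 and 23.9 CPM against 1.89, 2.35, 2.10, 0.780 and 1.38 CPM, a log2 ratio of 4.11. Il33, an alarmin (1.91), and Csf1, the growth factor of microglia and macrophages (1.72), were also higher. Cxcl3, a neutrophil chemokine, had 146, 29.97, 67.9, 58.2 and 149 CPM in the astrocyte libraries, and in the flow-through libraries at most 46 counts and 0 in libraries 2 and 3, so that no size is given for its ratio. On the other side were Ccl3 (-1.93) and Ccl4 (-3.79), chemokines of microglia, and Cxcl16 (-2.89). Il6 was at most 2.30 CPM in any library and was not called, and Cxcl1 was not called either. Of 16 immediate early and stress genes, 5 were higher (3 without pairs 2 and 3, a share near the 19.4% of all genes) and 1 lower (18.7%), and 9 had a higher ratio than in uninjured cord (28.3%) while 2 had a lower one (17.5%). Fos had 80.2, 64.2, 67, 57.2 and 70.3 CPM against 26, 13.2, 20.2, 18.7 and 26.5 CPM (1.73), Hmox1, the heme oxygenase, had a log2 ratio of 1.34, not called without pairs 2 and 3, and Atf3, a stress transcription factor, of -0.93, short of 2-fold.

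Matrix genes of glia kept less of their enrichment. Of 16, 8 were higher (19.4% of all genes) and 0 lower (18.7%), while 8 had a lower ratio than in uninjured cord (17.5%) and 3 a higher one (28.3%). Ncan, neurocan, a proteoglycan of the perineuronal matrix, had 376, 390.1, 355, 384 and 329.9 CPM against 143, 181, 191, 147 and 110.1 CPM, a log2 ratio of 1.27 against 3.97 in uninjured cord. Tnc, tenascin C, was higher (1.44), a call that was lost without pairs 2 and 3, and Vcan, versican, was not called (-0.90) but was called lower without pairs 2 and 4 (-1.12).

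Genes of mitosis were on the flow-through side at 2 d. Of 20 proliferation genes, 11 were lower in the astrocyte libraries (18.7% of all genes), 1 was higher (19.4%) and 8 were not called. A split by role, made apart from the gene lists, put all 11 lower genes among its 11 genes of mitosis. Of these, 9 were lower without pairs 2 and 3, and their median log2 ratio with all pairs was -2.48. Mki67, the Ki-67 antigen of dividing cells (gene 17345; chromosome 7, 135689784 to 135716450), had 8.37, 7.21, 8.13, 10.1 and 11 CPM in the astrocyte libraries and 151, 185, 115, 132 and 129 CPM in the flow-through libraries. Every flow-through library was far above every astrocyte library, with a log2 ratio of -3.98 (SE 0.20, adjusted p = 4.2e-06, edgeR's quasi-likelihood test). In the astrocyte libraries Mki67 was at 2.73 ± 1.15 CPM in uninjured cord (SD, n = 4), 8.95 ± 1.58 CPM at 2 d (SD, n = 5) and 49.5 ± 7.93 CPM at 5 d (SD, n = 4). In the flow-through libraries it was at 1.29 ± 0.474, 137 ± 25.3 and 91 ± 10.8 CPM. Top2a, a topoisomerase of dividing cells, lay on the same side, at 10.4, 10.9, 15.3, 9.81 and 14.1 CPM against 71, 53.6, 47.6, 34.1 and 60.7 CPM (-2.12). Of 9 genes of DNA replication, 1 was higher (Mcm2, 2.19, not called without pairs 2 and 3) and 0 were lower. Averaged over the 11 genes of mitosis the log2 ratio was -2.62 ± 0.24 (SD, n = 5) at 2 d, -0.05 ± 0.38 (SD, n = 4) in uninjured cord and 0.11 ± 0.08 (SD, n = 4) at 5 d. Of the 11, 10 had a lower ratio than in uninjured cord (17.5% of all genes) and 10 a lower one than at 5 d (16.7%).

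RNA of the mitochondrial genome, which cytosolic ribosomes do not translate, was mostly on the flow-through side. Of 13 mitochondrial genes, 9 were lower in the astrocyte libraries (18.7% of all genes) and 0 higher, with a median log2 ratio of -2.57. There were 6 lower without pairs 2 and 3 and 11 lower without pairs 2 and 4, where the median was -3.52. Averaged over the list, the log2 ratio was -0.95 and -1.56 in pairs 2 and 4 and -3.08 to -2.98 in the other 3. Mitochondrial counts made up 0.179 to 0.229% of the astrocyte libraries and 2.34 to 2.65% of flow-through libraries 1, 3 and 5, against 1.09 and 1.41% in libraries 2 and 4. Of 9 nuclear long noncoding RNAs tested, 6 were lower (18.7% of all genes) and 0 higher, and 3 were lower without pairs 2 and 3. Meg3 had 136, 118, 94.6, 213 and 124 CPM against 209, 398, 416, 619.8 and 255 CPM (-1.42). One astrocyte value of Meg3 lay above the lowest flow-through value, and the call was lost without pairs 2 and 3. Malat1, a nuclear RNA, overlapped as well (-0.38). Over all genes, 723 long noncoding RNAs were tested, of which 26 were higher and 153 lower, and most were not called. They made up 4.39% of genes tested, 0.814% of the higher genes and 4.96% of the lower ones. They were thus rare among the higher genes, while their share of the lower ones was near that of genes tested.

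The extremes of the ranking were of different kinds. Among genes with more than 3 counts in every library and at least 10 CPM in the higher fraction, Hmga1b had the largest ratio, with 146, 175, 119, 86.3 and 130.5 CPM against 0.522, 1.12, 1.79, 1.32 and 1.00 CPM (6.87). It is a near-identical copy of Hmga1, a chromatin protein of growing cells, and reads of these copies may not be told apart. Hmga1 itself, named for this reason, had 497, 538, 422, 421 and 449 CPM against 39.3, 29.4, 35, 27.7 and 35.8 CPM (3.80). Next came Itpkb, an inositol phosphate kinase (6.56), Usp53 (6.22), Gpc5, a glypican of astrocytes (5.93), Slc2a1, the glucose transporter GLUT1 (5.86), and Acsbg1, an acyl-CoA synthetase of astrocytes (5.68). Flow-through values of Slc2a1 ran from 0.433 CPM in library 4 to 8.07 CPM in library 1, and without pairs 2 and 4 the log2 ratio was 5.06 for Slc2a1 and 5.96 for Itpkb. At the other end, Eln, elastin, had 6.24, 12.1, 13.6, 12 and 13.3 CPM against 1931, 1769, 2331, 1346 and 2462 CPM (-7.44), and Aspn (-7.71) and Mfap4 (-7.27) are also of connective tissue. Bc1, a small noncoding RNA of neurons, had a log2 ratio of -7.60. H19, an imprinted noncoding RNA, had -7.32. Without pairs 2 and 4 the log2 ratio was -8.36 for Aspn, -8.03 for Mfap4, -6.88 for Bc1 and -7.98 for H19. Cd5l, a secreted protein of macrophages, had 0.392, 0.595, 0.141, 0.526 and 0.297 CPM against 61.3, 38.1, 58.1, 80.2 and 41.5 CPM (-7.20).

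How far the 2 d pattern differed from that of uninjured cord was tested as a difference of log2 ratios in a fit of all 26 libraries of the 3 groups. Of 18931 genes tested, 5357 (28.3%) had a higher ratio at 2 d and 3318 (17.5%) a lower one, at FDR under 0.01. The median difference over all genes was 0.44 on the log2 scale, 0.30 with another scaling (RLE) and 0.71 with total counts alone, so that differences are to be read against that shift. With total counts alone the numbers were 6419 and 2562. The 3 groups share 1 estimate of the spread in that fit. Flow-through libraries correlated at 0.909 to 0.957 with each other at 2 d and at 0.982 to 0.988 in uninjured cord. The p-values of differences may therefore understate the spread at 2 d. In a fit of 2 d and uninjured cord alone, 4321 genes had a higher ratio and 2775 a lower one, of 18417 tested. Of the genes with a higher ratio, 56.1% were at least 2-fold lower than in uninjured cord in the flow-through libraries alone. At least 2-fold higher in the astrocyte libraries alone were 18.2%. Here alone means that the other fraction did not move 2-fold or more the opposite way. The other fraction may have moved the same way by any amount. Of those with a lower ratio, 50.1% were at least 2-fold higher in the flow-through libraries alone and 20.3% at least 2-fold lower in the astrocyte libraries alone. All differences of 2 d from the other groups also carry the sex-linked pattern described above.

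**Figure D5:**
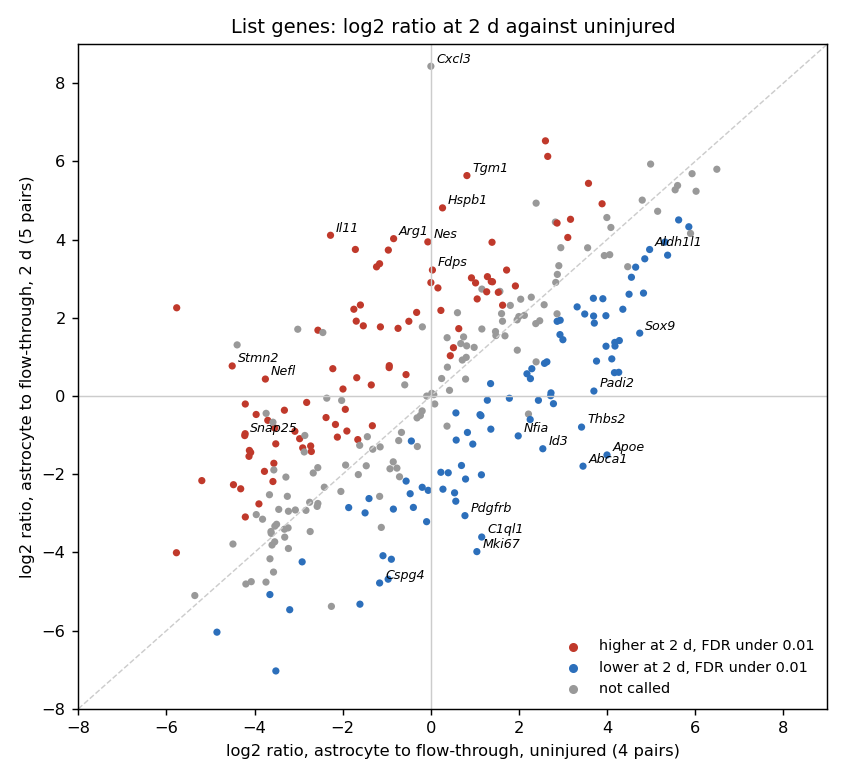
Log2 ratio of the astrocyte over the flow-through libraries at 2 d (vertical) and in uninjured cord (horizontal) for 302 genes of the lists, with genes whose ratio was higher at 2 d in red (87), lower in blue (89) and not called in grey (126), and the line of equal ratios dashed. Apoe, Abca1, Id3, Nfia and Mki67 lie at the lower right, enriched in uninjured cord and depleted at 2 d, and Il11 and Nes lie above the line.

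Some genes changed side. There were 1291 genes higher in the astrocyte libraries both at 2 d and in uninjured cord, which is 40.4% of those higher at 2 d and 49.4% of those higher in uninjured cord, and 1603 were lower at both. Another 162 genes were higher in uninjured cord and lower at 2 d, and 218 were the reverse. Of all genes, 13.8% were higher and 21.4% lower in uninjured cord, and 19.4% were higher and 18.7% lower at 2 d. For all genes that changed side the difference was called. Opposite calls of at least 2-fold make that nearly certain beforehand, so it adds no evidence. Among genes with more than 3 counts in every library of both groups and at least 10 CPM in some group, Fabp4 (-7.45) and Lpl (-7.23) had the largest falls of the log2 ratio. Fabp4 is a fatty acid carrier of vessels and macrophages, and Lpl is lipoprotein lipase (gene 16956; chromosome 8, 68880555 to 68906932). Lpl had 11.4, 21.2, 19.3, 13 and 13.6 CPM in the astrocyte libraries at 2 d and 383, 453, 311, 435 and 314 CPM in the flow-through libraries. In uninjured cord it had 33.8 ± 3.04 and 5.42 ± 0.972 CPM (SD, n = 4 each). Aplnr, the apelin receptor (-6.61), and Gja5, a gap junction protein of arteries (-6.56), followed. In the other direction, after Hmga1b (8.66), Slc6a17, a vesicular amino acid transporter of neurons, had 95.7, 162, 105, 113 and 93.3 CPM against 4.37, 4.27, 7.42, 9.81 and 3.73 CPM at 2 d, and 14.2 ± 1.41 against 159 ± 17.8 CPM in uninjured cord (SD, n = 4 each). Its ratio differed by 7.85. Vgf, a secreted peptide precursor of neurons, differed by 7.21 and Calca, the calcitonin gene-related peptide, by 7.05. Vgf was called higher at 2 d (2.36, not called without pairs 2 and 3), Calca was not (0.96).

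The study also chose a list of consensus astrocyte genes, partly on the uninjured libraries used here, so that their enrichment in uninjured cord (423 higher and 6 not called, against 13.8% of all genes higher) is no independent evidence. At 2 d 272 of 425 tested were higher (background 19.4%), 19 were lower and the median log2 ratio was 1.80. Without pairs 2 and 3 the number higher was 234. Their ratio was lower than in uninjured cord for 294 (17.5% of all genes) and higher for 25 (28.3%). Because the genes were chosen partly for a high ratio in uninjured cord, a fall from it is favoured beforehand, and these counts are no independent evidence either.

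Against 5 d, 3420 genes (18.1%) had a higher ratio at 2 d and 3165 (16.7%) a lower one, with a median difference of 0.16. With total counts alone the split was 4346 and 2330, and in a fit of 2 d and 5 d alone it was 2596 and 2809. The word alone has the same meaning here as in the comparison with uninjured cord. Of the genes with a higher ratio than at 5 d, 41.0% were at least 2-fold lower in the flow-through libraries alone. A further 9.36% were at least 2-fold higher in the astrocyte libraries alone. Of those with a lower ratio, 19.5% were at least 2-fold higher in the flow-through libraries alone and 31.7% at least 2-fold lower in the astrocyte libraries alone. Of the astrocyte markers 4 of 20 had a higher ratio than at 5 d (7 without pairs 2 and 4) and 2 a lower one (3 without pairs 2 and 4). Nes (3.05) and Fdps (4.42) had a higher ratio than at 5 d. Apoe (-3.17), Spp1 (-3.43) and Mki67 (-3.05) had a lower one. Apoe was on the astrocyte side at 5 d, with a log2 ratio of 1.70. Of the general leukocyte genes, 9 of 10 had a lower ratio at 2 d than at 5 d and 1 a higher one.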

How the data were processed

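Poly-A RNA of astrocyte and flow-through libraries was sequenced paired end on a NovaSeq. Trimmomatic, HISAT2 with the mouse genome mm10 and featureCounts were the tools with which the authors made the deposited raw counts per gene (HISAT2 and featureCounts with default settings, which in featureCounts take no account of strand, so overlapping and antisense genes cannot be separated). Of 27179 gene identifiers, 25275 matched a symbol in RefSeq GRCm38.p6, which also gave coordinates. From the counts, edgeR 4.0.16 in R 4.3.3 was run with filterByExpr, TMM scaling and robust quasi-likelihood tests, with the number as a block. Enrichment needed an FDR under 0.01 after Benjamini-Hochberg adjustment and a 2-fold ratio in the 10 libraries at 2 d. Differences from uninjured and 5 d cord were interaction terms, with no fold threshold, in a fit of 26 libraries. Uninjured and 5 d ratios and the levels given as mean ± SD also come from that fit and its scaling, and the CPM values per library from the scaling of the 10. List values per pair are means of log2 CPM with a prior count of 2. DESeq2 1.42.0, other scalings, filters and thresholds, and fits without single pairs were tried as alternatives, and the code was tested on simulated data.

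The number was kept as a block because both libraries of a number are described as parts of 1 immunoprecipitation. In pairs 2 and 3 at 2 d the sex-linked genes go against that. Deviations of same-numbered libraries from their group means correlated at 0.12 to 0.22 in uninjured cord and 0.09 to 0.16 at 5 d, and at -0.03 to 0.06 at 2 d, where 2 of 5 astrocyte libraries were closest to their own number. No 2 libraries of a group held the same values. The p-values measure the spread between these libraries. The members and the 25 gene lists were chosen with earlier results of these data known. Named by rule were the first 3 genes of each list, the 6 highest and 6 lowest ratios at 2 d and the 4 largest differences from uninjured cord each way (over 3 counts in every library, 10 CPM in a group). Some genes that the rule names are not reported here. Other genes, including Hmga1, Hoxa9 and Tubb2b, were chosen after their values were seen. The 1904 identifiers without a symbol stayed in the fits and are not named, and 1 of them took 4.73 to 12.8% of counts in the astrocyte libraries at 2 d and 0.485 to 1.22% in the flow-through libraries.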

Additional observations from a re-analysis of the deposited data

Results flagged for a closer look

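In 7 of 125 sets of replicate values (5.6%, where chance gives about 1 in 20) a single library or pair lay far from the others of its group. Pair 2 stood apart in 4 of them. Its log2 ratio was -1.03 for the microglia list (the others lay between -2.33 and -2.05), 3.81 for the list of endfeet, water and potassium (3.01 to 3.24), 2.45 for the consensus astrocyte genes (1.82 to 1.99) and 4.11 for Slc1a3 (3.08 to 3.11). Flow-through library 2 had the fewest counts, and the part of its depth in these values was not tested. Pair 5 had a log2 ratio of 1.41 for the monocyte and macrophage list (2.16 to 2.46) and of 5.33 for Lcn2 (2.61 to 3.02). Astrocyte library 3 had 17798 genes with a count, where the other 4 had 18484 to 18595.

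Enrichment at 2 d differed from that in uninjured cord, by the interaction test in edgeR, for 5357 genes with a higher and 3318 with a lower log2 ratio, and from that at 5 d for 3420 and 3165. Of the genes named by rule, 11 were called in opposite directions at 2 d and in uninjured cord. Over all genes, 162 were higher in uninjured cord and lower at 2 d and 218 the reverse, with 16476 tested at 2 d. Fabp4, Lpl, Aplnr, Gja5, Hmga1b, Vgf and Slc6a17 were named for their large differences from uninjured cord. That choice favours opposite calls beforehand, so the number 11 is no evidence about the named genes. The log2 ratio at 2 d minus that in uninjured cord was -5.46 for Apoe, -4.98 for Mki67, -2.96 for Nfia, -7.45 for Fabp4, -7.23 for Lpl, -6.61 for Aplnr and -6.56 for Gja5. It was 3.37 for Ccl2, 8.66 for Hmga1b, 7.21 for Vgf and 7.85 for Slc6a17.

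Y-linked counts were found where the labels give female mice, with over 1000 counts of Ddx3y in 8 of the 10 libraries at 2 d. Time and the sex-linked pattern cannot be told apart in the differences above.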

How the results depend on the processing

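The counts at 2 d stayed within 1.5 times of 3195 higher and 3086 lower genes under every alternative tried except leaving out pairs 2 and 3, which gave 2109 and 2042 (2044 and 2017 of them shared with the full set). Single pairs left out gave 2752 to 3159 and 2655 to 2900. For the difference from uninjured cord they gave 4656 to 5442 and 2953 to 3460, and from 5 d 2654 to 3646 and 2595 to 3272. Without the replicate block the counts were 3254 and 3522 at 2 d, 5375 and 3615 against uninjured cord and 3365 and 3339 against 5 d. Of the list genes and the extremes of the ranking, most of them not named here, 315 stayed on the same side of the threshold without the block, 9 gained a call and 3 lost theirs. With the median in place of the mean over genes, the list value was -3.90 for OPCs, -3.48 for endothelium and -0.50 for Schwann cells. With total counts alone it was -3.07 for endothelium, -1.21 for general leukocytes and 1.82 for reactive astrocytes. The causes were not tested. Without pairs 2 and 4, chosen after seeing the data as were pairs 2 and 3, the difference from uninjured cord reversed for Laptm5 (0.69) and Rfx4 (-0.67), and that from 5 d for Gpr34 (-1.31). Flow-through libraries 2 and 4 had the lowest depth, and its part in the genes under 1 CPM there was not tested.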

Other observations

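Hoxa9 and Tubb2b were near 0 in the flow-through libraries at 2 d, where both other groups had more. Hoxa9, a homeobox gene, had 54, 0, 18, 0 and 12 counts in flow-through libraries 1 to 5 and 1948 to 2456 counts in the astrocyte libraries. Its mean level in the flow-through libraries was 0.216 CPM at 2 d, 36.3 ± 1.65 CPM in uninjured cord and 4.20 ± 1.14 CPM at 5 d (SD, n = 4 each), while in the astrocyte libraries it was 29.2 ± 1.82 CPM at 2 d (SD, n = 5) and 23.4 ± 1.85 CPM in uninjured cord (SD, n = 4). Tubb2b, a beta tubulin of young neurons and astrocytes, had 5.95, 0, 3.71, 1.77 and 2.37 CPM in the flow-through libraries and 440.5 to 715 CPM in the astrocyte libraries, where its mean was 579 ± 124 CPM at 2 d (SD, n = 5) and 172 ± 22.3 CPM in uninjured cord (SD, n = 4). In the flow-through libraries of uninjured and 5 d cord it was at 40.9 ± 6.09 and 67.7 ± 14.7 CPM (SD, n = 4 each). Both genes were called higher in the astrocyte libraries at 2 d. They were chosen after their values were seen.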
